A study of Mus musculus with 367 samples.

Results

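The RNA of 9 cell surface proteins that are widely used to sort dermal fibroblasts was followed in single cells of healing mouse wounds. The genes were Cd34, Ly6a, Ly6c1, Dpp4, Thy1, Cd248, Eng, Pdpn and Fap. They were chosen as a list of names, with earlier results of these data known, and are 9 of the 50600 genes in the deposited matrices. All 9 were found by their Ensembl identifiers and passed the filter on low values in every comparison below. The cells were sorted as viable tdTomato-high cells from Sm22-Cre;tdTomato mice of mixed background, in which Cre recombinase under the promoter of Tagln, a smooth muscle and myofibroblast gene, leaves a lasting red label. The mice were 3 to 8 weeks old and carried square excisional wounds of 1.5 cm a side on the back. The tissue of 2 to 3 mice was pooled at each of 3 times after wounding. Day 12 was represented by 3 microfluidic captures of 54, 65 and 40 cells, day 15 by 2 captures of 84 and 33 cells, and day 21 by 2 captures of 49 and 42 cells. All 367 cells shared genotype, wound and sort gate, and no unwounded or unlabeled cells were used here. A capture is the replicate in the tests. Nothing says that captures of a day came from different mice, so the spread between them may be technical.

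Fibroblasts of the dermis share collagen genes but differ in their surface proteins. CD34 and Sca-1, the product of Ly6a, mark dermal precursors and stem-like stromal cells of many tissues, DPP4 is prominent on fibroblasts of the upper dermis and on universal fibroblasts, and THY1 is the classical pan-fibroblast antigen. Endosialin (Cd248), endoglin (Eng), podoplanin (Pdpn) and fibroblast activation protein (Fap) are known for their rise in activated, perivascular or tumor stroma. None of the 9 is restricted to fibroblasts, since pericytes, endothelial cells, lymphocytes or macrophages carry one or another of them.

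Levels are given in FPKM, a count of fragments that is divided by the length of the transcript and by the depth of the cell, so that genes can be set side by side. Of the 367 cells, 292 passed limits on depth, gene number and mitochondrial RNA. The median depth of kept cells ran from 958848 to 2334920 estimated fragments over the 7 captures, and a single fragment on a transcript of 1 kb was worth 0.678 FPKM at the median depth. In the shallowest kept cell, with 171697 fragments, it was worth 5.82 FPKM. Cells were named by 3 genes that are no members. Matrix cells had at least 1000 FPKM of Col1a1, under 100 of Rgs5 and under 50 of Tyrobp (198 cells). Mural cells, the pericyte-like cells, had at least 500 of Rgs5 and under 50 of Tyrobp (57 cells), and myeloid cells had at least 500 of Tyrobp (26 cells), whereas 11 cells met no rule. The names were set beside marker lists, each of which includes the naming gene of its kind. All 8 matrix fibroblast markers were at 10 FPKM or more in at least 50% of the matrix cells. The same held for 7 of 8 mural markers in mural cells and 8 of 8 myeloid markers in myeloid cells. Of the matrix fibroblast markers, 5 also did so in mural cells and 2 in myeloid cells. No mural or myeloid marker did so in another of the 3 kinds. Endothelial markers, which would matter for Cd34, Ly6c1 and Eng, summed to a median of 0 FPKM in matrix cells, to 100 FPKM or more in 1 of 198, and 2 of the 8 were at 0 in every matrix cell. In mural cells they reached that sum in 4 of 57, up to 340 FPKM, with 3 of the 8 at 0 in every cell, and their part in the comparisons with mural cells was not tested. T cell markers, which would matter for Thy1, never reached a sum of 100 FPKM in a matrix or mural cell, and 4 of the 6 were at 0 in both. With the 28 matrix cells left out in which the summed myeloid, mural, endothelial, Schwann cell and keratinocyte markers reached 100 FPKM, the shares of the remaining 170 with 10 FPKM or more of a member hardly moved, for instance 41.8% in place of 41.9% for Cd34 and 11.8% in place of 12.6% for Dpp4.

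Ly6a and Ly6c1 belong to a cluster of related genes on chromosome 15, and the reading of Ly6c1 depends on its near copy Ly6c2. In GENCODE mouse release 21 (GRCm38), Ly6a lies at chr15:74994877-74998031 and Ly6c1 at chr15:75044018-75048830, both on the minus strand. The longest protein-coding transcripts of Ly6c1 and Ly6c2 were 95% identical over the alignment, against 74.6% for Ly6a and Ly6c1, so that fragments of the Ly6c pair can be hard to place. Upstream of the genes the pair was less alike. Their RefSeq promoters (GRCm38.p6, 250 bases before to 50 bases after the start) had 214 identical bases over 340 alignment columns (62.9%). Gap columns counted as differences, so the share over paired bases was higher. The promoters are printed because the paralogs differed so widely in RNA. The capitals mark their longest shared run of 20 bases. Searched on both strands, the run occurred in 5 of 32544 promoters (0.0154%), all of them entries of Ly6c1, Ly6c2 and Ly6a2.
Ly6c1, chr15:75048788-75049087, minus strand: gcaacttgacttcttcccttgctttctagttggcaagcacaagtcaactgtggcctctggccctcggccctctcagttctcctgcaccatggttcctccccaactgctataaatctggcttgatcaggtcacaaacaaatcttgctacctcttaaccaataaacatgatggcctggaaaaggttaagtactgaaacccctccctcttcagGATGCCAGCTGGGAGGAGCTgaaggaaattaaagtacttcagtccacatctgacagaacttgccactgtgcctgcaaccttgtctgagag
Ly6c2, chr15:75111922-75112221, minus strand: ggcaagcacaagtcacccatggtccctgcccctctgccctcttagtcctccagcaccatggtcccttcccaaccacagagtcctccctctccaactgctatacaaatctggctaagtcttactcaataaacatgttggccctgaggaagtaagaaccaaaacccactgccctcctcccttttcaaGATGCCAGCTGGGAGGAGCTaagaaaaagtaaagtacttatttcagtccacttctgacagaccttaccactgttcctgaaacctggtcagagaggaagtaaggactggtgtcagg
Ly6c1 averaged 172 FPKM over the 198 matrix cells and Ly6c2 0.335 FPKM. Ly6c2 was above 0 in 18 matrix cells, of which 16 had 10 FPKM or more of Ly6c1, against 54 of the 180 cells with Ly6c2 at 0. Of these 18 cells, 14 were from day 21. Whether those low values were fragments of Ly6c1 placed on its copy was not tested.

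The 9 genes formed a wide order of levels in matrix cells. By the median cell, Pdpn led with 501 FPKM, followed by Ly6a with 468, Thy1 with 38.3, Cd248 with 25.2 and Cd34 with 3.51 FPKM, whereas the medians of Ly6c1, Dpp4, Eng and Fap were 0. The mean over cells gave another order, with Ly6a (850 FPKM) above Pdpn (657), Ly6c1 (172), Thy1 (134) and Cd34 (66.8). On the log2(mean + 1) scale over the 7 captures, Ly6a stood at 9.57 ± 0.65 and Pdpn at 9.39 ± 0.59 (SD, n = 7), closer than their spread. Ly6c1 (7.16 ± 0.97) and Thy1 (6.84 ± 0.64) were also not separated, nor were Cd34 (5.69 ± 0.90) and Cd248 (5.57 ± 0.48). Fap (2.93 ± 1.41), Dpp4 (2.75 ± 1.97) and Eng (2.27 ± 1.75) came last and varied most between captures.

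Detection above 0 and detection at 10 FPKM differed most for Cd34. Cd34, which encodes a sialomucin, lies at chr1:194938819-194961279. It was above 0 in 172 of 198 matrix cells (86.9%, exact Clopper-Pearson 95% interval 81.4 to 91.2%), but also in 71.9% of mural cells and in 65.4% of myeloid cells. In 89 of the matrix cells its value lay between 0 and 10 FPKM, and 83 cells (41.9%, 35 to 49.1%) reached 10 FPKM. At that limit the mural share was 10.5% (6 of 57, 3.96 to 21.5%) and the myeloid share 11.5% (3 of 26, 2.45 to 30.2%). An antisense gene, Gm16897, overlaps Cd34. Its mean was 0.212 FPKM in matrix cells, and without a stated strand reads from the pair cannot be told apart. Pdpn was above 0 in 190 and at 10 FPKM or more in 183 matrix cells, and Ly6a in 163 and 157. Cd248 (167 and 125) and Thy1 (165 and 133) lost more cells at the limit. The limit of 10 FPKM is used for shares from here on, and intervals cover counting error only. Cells could not be thinned to a common depth because the files hold no counts. Median depths were 1437765 fragments in matrix, 1281430 in mural and 2102841 in myeloid cells.

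**Figure D1:**
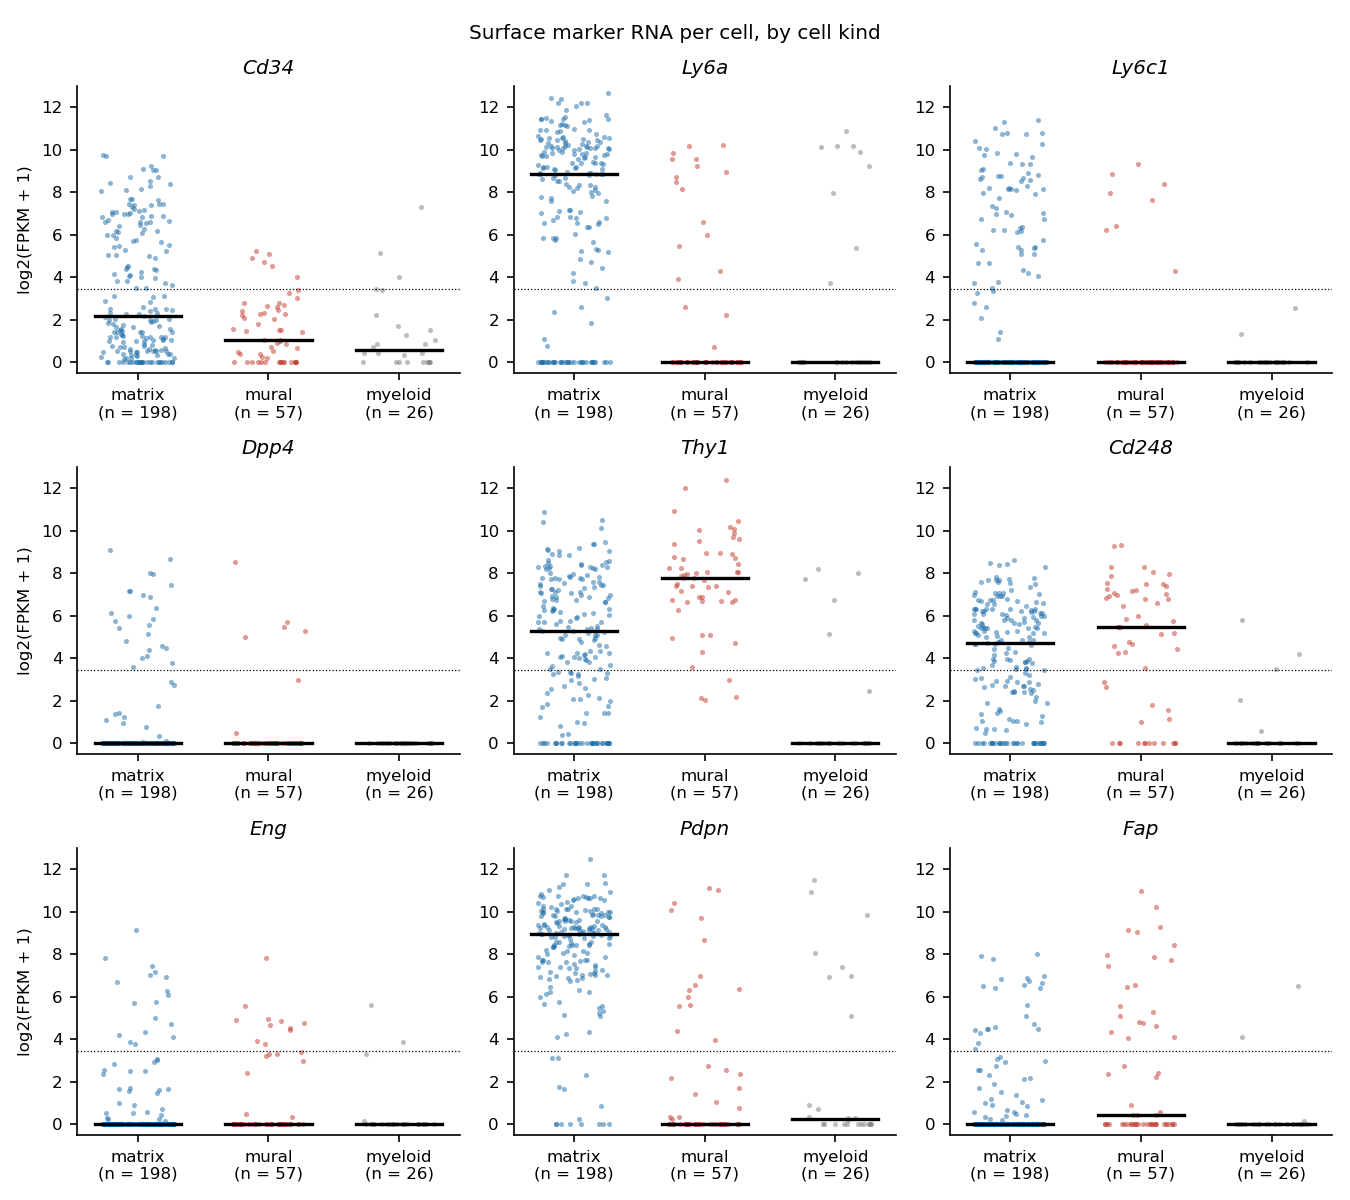
Each panel plots log2(FPKM + 1) of 1 member in every kept cell, by cell kind, with points spread sideways at random, the median as a black bar and 10 FPKM as a dotted line. Pdpn and Ly6a fill the upper range in matrix cells (183 and 157 of 198 at or above the line), and Thy1 is above 0 in all 57 mural cells. Cd34 spreads across the line in matrix cells, with 26 at 0, 89 above 0 but under the line and 83 at or above it.

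Matrix and mural cells were compared within the 5 captures that had at least 3 of both. Cd34, Ly6a and Pdpn were higher in matrix cells and Thy1 was higher in mural cells. Across all 13823 genes tested, 1.71% were called (0.76% higher in matrix cells, 0.948% higher in mural cells), against 4 of the 9 members, 3 higher in matrix and 1 in mural cells. The median difference of the members was 0.04 on the log2(mean FPKM + 1) scale and that of all genes 0.22. The tests were limma fits with the capture as a block and Benjamini-Hochberg adjustment over all genes.

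Pdpn, the mucin-type ligand of the platelet receptor CLEC-2, lies at chr4:143267431-143299564. Its mean in matrix cells was 423, 602 and 644 FPKM in the 3 captures of day 12, 516 in capture 1 of day 15 and 1478 in capture 1 of day 21. In the mural cells of the same captures it was 19.6, 6.85, 171, 12.5 and 722 FPKM. Matrix cells were higher in 5 of 5 captures, although the day 21 mural mean lay above 4 of the 5 matrix means and its median was 40.6 FPKM. The limma difference was 3.76 ± 0.68 (SE, adjusted p = 0.0244), the widest among the members called.

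Ly6a, the GPI-anchored Sca-1 antigen, averaged 467, 513, 1004, 798 and 825 FPKM in matrix cells and 212, 122, 171, 40.1 and 162 FPKM in mural cells, in the same order of captures. The 2 groups did not overlap. The difference was 2.47 ± 0.40 (SE, limma adjusted p = 0.0135), with 5 of 5 captures in that direction. Its relative Ly6e, which is broadly expressed, differed by 1.48 ± 0.24 (limma adjusted p = 0.0159).

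Cd34 averaged 56.3, 26.9, 62.6, 52.4 and 27.2 FPKM in matrix cells and 2.01, 1.49, 5.22, 3.52 and 12.7 FPKM in mural cells. The groups did not overlap, and capture 1 of day 21 showed the smallest gap, 1.05 on the log2 scale. The difference was 3.14 ± 0.63 (SE, limma adjusted p = 0.0401). Ly6c1, with 156, 51.5, 168, 83 and 206 FPKM in matrix cells and 0, 10.6, 100.8, 13.9 and 41.6 FPKM in mural cells, was higher in matrix cells in 5 of 5 captures but was not called (difference 3.00 ± 0.82, limma adjusted p = 0.116).

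Thy1, a small GPI-anchored immunoglobulin-like protein at chr9:44043384-44048579, ran the other way. Matrix cells averaged 76, 109, 72.2, 194 and 170 FPKM, mural cells 416, 266, 287, 396 and 932 FPKM. The groups did not overlap, and every mural cell had the RNA. The difference was -1.83 ± 0.32 (SE, limma adjusted p = 0.0204). Fap, a dipeptidyl peptidase at chr2:62500943-62574075 beside its relative Dpp4, was lower in matrix cells in 5 of 5 captures, with means of 13.5, 4.40, 17.1, 13.1 and 0.09 FPKM against 16.4, 83.3, 79.5, 119 and 255 FPKM in mural cells. The mural mean of 255 FPKM came from 1 cell of 2042 FPKM, with the other 7 mural cells of that capture at 0. Fap was not called (-3.47 ± 0.93, limma adjusted p = 0.108). Fap reached 10 FPKM in 21 of 57 mural cells (36.8%, 24.4 to 50.7%) and in 23 of 198 matrix cells (11.6%, 7.51 to 16.9%).

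The remaining members were not separated. Cd248, the C-type lectin-like endosialin at chr19:5068078-5070682, differed by -1.05 ± 0.47 (limma adjusted p = 0.348) and reached 10 FPKM in 125 of 198 matrix and 39 of 57 mural cells. Eng, the TGF-beta co-receptor at chr2:32646595-32682669, differed by -0.70 ± 0.72 (limma adjusted p = 0.693). It reached 10 FPKM in 18 matrix and 11 mural cells, and the gene overlaps Fpgs on the other strand, which did so in 13 and 1. Dpp4, the serine peptidase CD26 at chr2:62330073-62412231, differed by 0.04 ± 0.92 (limma adjusted p = 0.989), with 3 of 5 captures in that direction, and overlaps the antisense gene Gm13561.

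**Figure D2:**
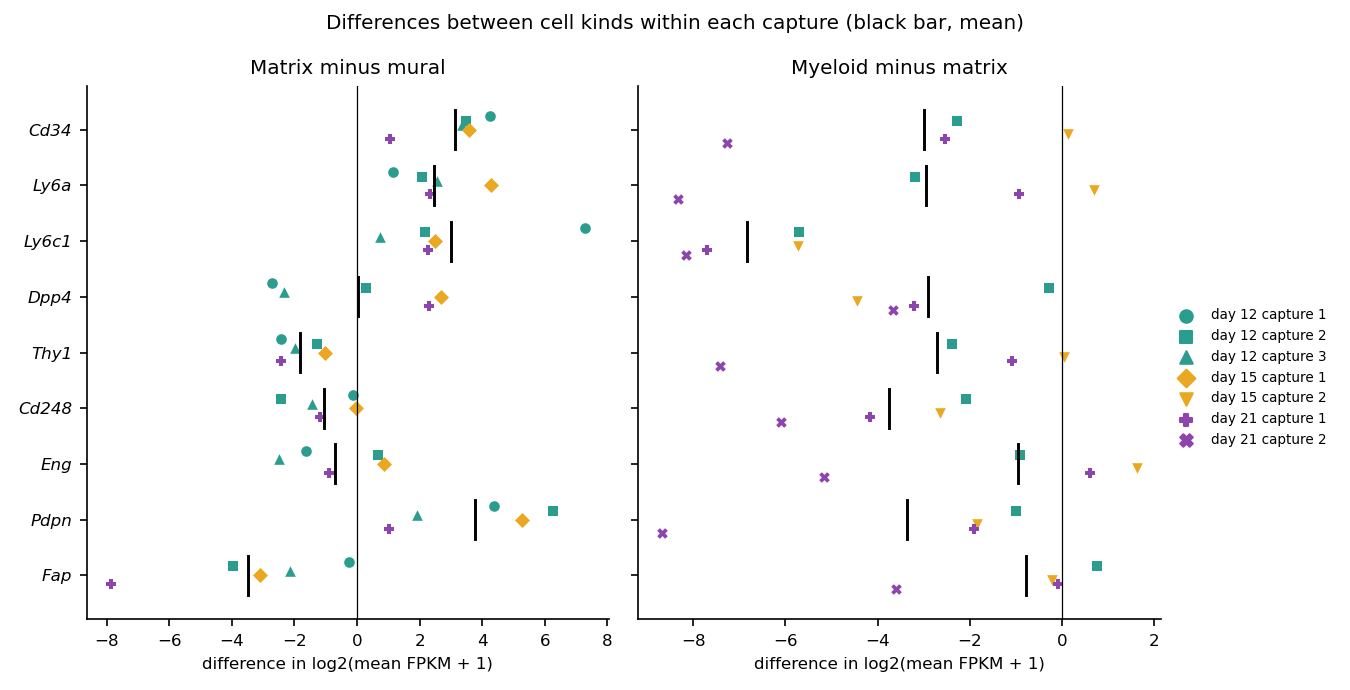
Each point is 1 capture, and its place on the x axis is the difference in log2(mean FPKM + 1) between 2 cell kinds of that capture, for matrix minus mural cells (left, 5 captures) and myeloid minus matrix cells (right, 4 captures), with the mean as a black bar. Cd34, Ly6a, Ly6c1 and Pdpn lie to the right of 0 in all 5 captures on the left, Thy1, Cd248 and Fap lie to the left, and Ly6c1 is below -5 in all 4 captures on the right.

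These calls were few-capture calls. Leaving out 1 capture at a time, the call of Cd34 was lost without any of captures 1, 2 or 3 of day 12 (adjusted p = 0.138, 0.116 and 0.134) or capture 1 of day 15 (0.140), that of Pdpn without captures 1 or 2 of day 12 or capture 1 of day 15, that of Thy1 without captures 1 or 3 of day 12 or capture 1 of day 21, and that of Ly6a without capture 3 of day 12, while the differences stayed between 2.86 and 3.66, 3.14 and 4.45, -2.03 and -1.68, and 2.02 and 2.81 in limma. With no filter on low values, all 4 calls were lost (adjusted p from 0.191 to 0.330).

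Collagen RNA split the mural cells with regard to part of these genes. The rule for mural cells sets no limit on Col1a1, and 19 of the 57 had 1000 FPKM or more. All 6 mural cells with 10 FPKM or more of Cd34 were among these 19, as were all 5 with Dpp4, 12 of 15 with Pdpn, 11 of 15 with Ly6a and 6 of 8 with Ly6c1. Of the 38 mural cells with less Col1a1, 0 reached 10 FPKM of Cd34 or Dpp4, which allows a share of up to 7.89% when a count of 0 is read as at most 3 cells, the rule used for each such limit here. Thy1 (34 of 38 and 19 of 19), Cd248 (24 of 38 and 15 of 19) and Fap (13 of 38 and 8 of 19) differed less between mural cells with less and with more Col1a1. Eng was in 9 of 38 and 2 of 19, the only member with the larger share in the cells with less Col1a1. Mean Pdpn was 448 FPKM in the 19 cells and 2.85 FPKM in the 38, mean Ly6c1 103 and 2.72 FPKM, and mean Thy1 286 and 602 FPKM.

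With only the mural cells under 1000 FPKM of Col1a1, the mean difference between matrix and mural cells was 8.31 for Pdpn, 6.22 for Ly6c1, 5.60 for Ly6a, 4.19 for Cd34 and -2.14 for Thy1 in the same 5 captures. This restriction was chosen after these values were seen and leaves out the very cells in which Pdpn, Ly6c1, Ly6a and Cd34 were mostly found, so the values are a description and no test of them is given. Wells with doublets had been excluded under the microscope, per the study's methods. The part of any remaining doublets in the mural cells with collagen RNA was not tested.

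**Figure D3:**
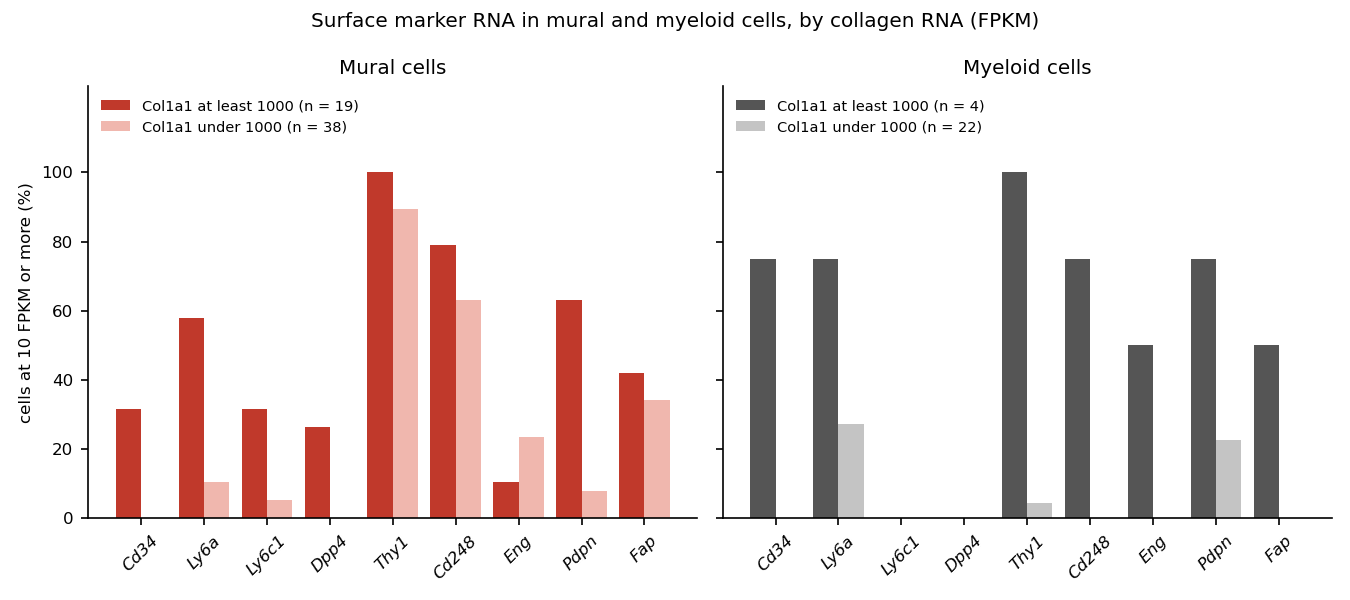
Bars give the percent of mural cells (left) and myeloid cells (right) with 10 FPKM or more of each member, split at 1000 FPKM of Col1a1. Cd34 and Dpp4 are at 0 of 38 in mural cells with little collagen RNA, Thy1 and Cd248 are frequent in both mural groups, and the 4 myeloid cells with collagen RNA carry most of the myeloid Cd34, Cd248, Thy1 and Fap.

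Myeloid cells, which passed the same red sort gate, allow the members to be compared between fibroblasts and leukocytes. Ly6c1 was lower in myeloid than in matrix cells and was the only member called. Of all 13059 genes tested in the 4 captures with at least 3 cells of both kinds, 6.59% were called (4.9% lower and 1.69% higher in myeloid cells), against 1 of 9 members, which was lower. The median difference was -2.94 for the members and -1.0 for all genes. Ly6c1 averaged 51.5, 118, 206 and 431 FPKM in the matrix cells of day 12 capture 2, day 15 capture 2 and day 21 captures 1 and 2, and 0, 1.24, 0 and 0.507 FPKM in the myeloid cells. None of the 26 myeloid cells reached 10 FPKM, which allows a share of up to 11.5% by the rule of 3 cells and of 13.2% by the exact interval. The difference was -6.83 ± 1.04 (SE, limma adjusted p = 0.0061) and was called without any 1 of the 4 captures, but not with no filter on low values (limma adjusted p = 0.0886). With myeloid means of 0 to 1.24 FPKM, Ly6c1 passed that filter through its matrix level, which mostly sets the difference.

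The other members did not pass the test. The limma differences were -3.75 ± 1.08 for Cd248 (adjusted p = 0.0580), -3.36 ± 1.08 for Pdpn (0.0779), -2.99 ± 1.27 for Cd34 (0.156), -2.94 ± 1.15 for Ly6a (0.128), -2.72 ± 1.25 for Thy1 (0.184), -0.96 ± 1.12 for Eng (0.586) and -0.79 ± 0.93 for Fap (0.594). Dpp4 was listed at 0 in all 26 myeloid cells, so that its difference of -2.90 (limma adjusted p = 0.0714) is only the matrix level. Capture 2 of day 21, whose 3 myeloid cells held nearly none of the members, weighed heavily. Without it the differences of Pdpn, Ly6a, Cd34 and Thy1 shrank to -1.58, -1.14, -1.57 and -1.15, and those of Eng and Fap turned to 0.44 and 0.15. Eng was higher in the myeloid cells of 2 of the 4 captures and Fap in 1.

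Here too several members went with collagen RNA. Only 4 of the 26 myeloid cells had 1000 FPKM or more of Col1a1, and these held all 3 myeloid cells with Cd34, all 3 with Cd248, both with Fap, both with Eng and 4 of 5 with Thy1. Ly6a and Pdpn were each at 10 FPKM or more in 3 of these 4 cells, with means of 1050 and 769 FPKM. They were also found without collagen RNA, in 6 and 5 of the 22 myeloid cells with less Col1a1, with means of 137 and 155 FPKM. Ly6c1 and Dpp4 reached 10 FPKM in no myeloid cell of either group. Podoplanin is also known from activated macrophages. With only the myeloid cells under 1000 FPKM of Col1a1, which left 3 captures, the differences were -7.19 for Ly6c1, -6.69 for Pdpn, -5.51 for Cd248, -5.43 for Thy1, -5.03 for Ly6a and -4.82 for Cd34. These too are a description with no test, since the cells left out were those seen to hold most Cd34, Cd248 and Thy1.

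Within matrix cells the members were combined in many ways. A matrix cell held a median of 4 of the 9 at 10 FPKM or more (range 0 to 8), a mural cell 3 and a myeloid cell 1, and 80 of 198 matrix cells held 5 or more. By Cd34 and Ly6a, the pair used to enrich adipocyte precursors and stem-like stromal cells, 71 matrix cells had both, 86 only Ly6a, 12 only Cd34 and 29 neither. Dpp4 was at 10 FPKM or more in 25 matrix cells, of which 13 had both Cd34 and Ly6a, 8 only Ly6a, 2 only Cd34 and 2 neither.

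Levels of the members went together only loosely. Pearson's r of log2(FPKM + 1) was taken within each of the 7 captures and averaged, as a description over cells that share library and depth. The mean was above 0 for 30 of the 36 pairs, with a median of 0.09, and 6 pairs were above 0 in every capture. The neighbors Ly6a and Ly6c1 had the highest mean, 0.38 (0.15 to 0.57). Of the 70 matrix cells with Ly6c1, 67 also had Ly6a (95.7%), against 90 of the 128 without Ly6c1 (70.3%). Ly6a was thus common in both groups, and 42.7% of its 157 cells had Ly6c1. Pdpn was likewise in 67 of the 70, against 116 of the 128 (90.6%). In the capture order of day 12, 15 and 21, the cells with both, with Ly6a alone and with Ly6c1 alone were 6, 12 and 1 of 31, 7, 14 and 0 of 26, 3, 12 and 0 of 17, 14, 26 and 1 of 50, 5, 11 and 1 of 22, 8, 7 and 0 of 18, and 24, 8 and 0 of 34. A cell with Ly6c1 but without Ly6a was thus seen at most once per capture.

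Ly6a with Pdpn followed at 0.31 (0.07 to 0.48), Ly6c1 with Pdpn at 0.25 (0.03 to 0.40) and Cd34 with Ly6a at 0.23 (0.06 to 0.45). Cd248 and Eng had a low but even r of 0.17 (0.11 to 0.26). Cd34 and Ly6c1, at 0.11, ran from -0.16 to 0.73 between captures, and Pdpn and Fap, at -0.11, from -0.78 to 0.22. The neighbors Dpp4 and Fap on chromosome 2, which share ancestry, had a mean of 0.11 over the 6 captures in which Dpp4 varied, and 4 of 25 Dpp4 cells had Fap.

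**Figure D4:**
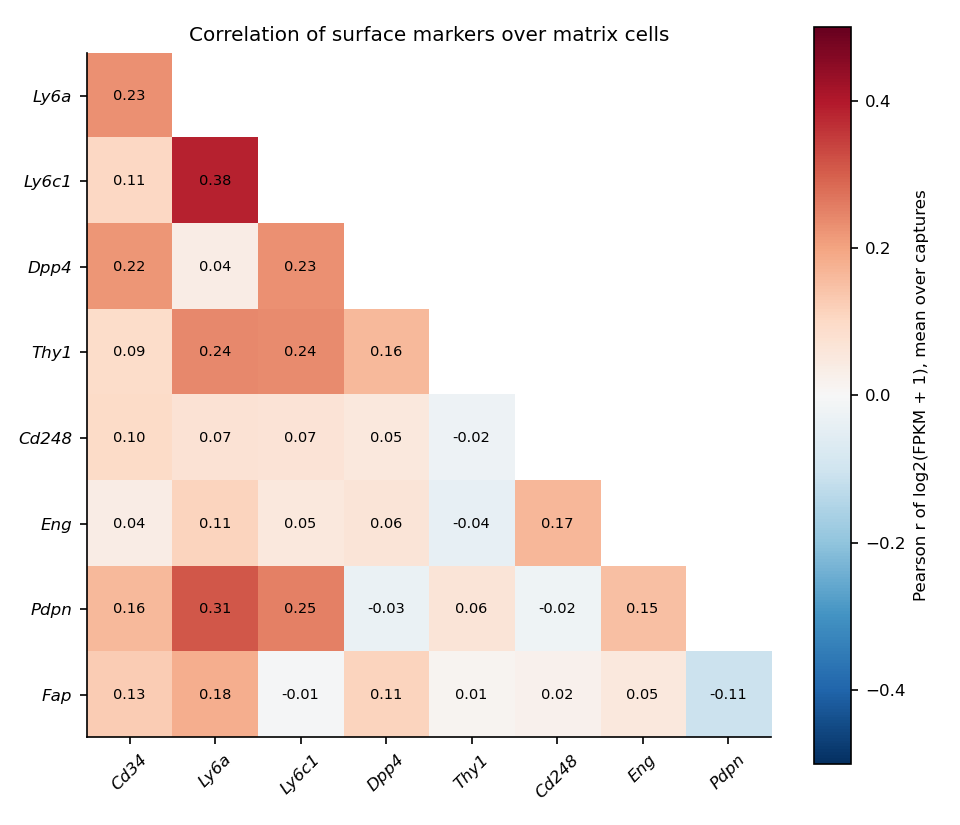
Each square gives Pearson's r of log2(FPKM + 1) for a pair of members over matrix cells, averaged over the captures (7, or 6 for pairs with Dpp4), on a color scale from -0.5 to 0.5. Ly6a and Ly6c1 are highest at 0.38, and Fap and Pdpn lowest at -0.11.

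The genes most alike to each member over matrix cells were searched among 8243 genes above 0 in at least 25% of them. Each named gene was picked by its r, which favors high values, and none was tested against chance. The lowest r over captures was below 0 for many, for instance -0.06 for Cd34 with Igfbp6 and -0.19 for Pdpn with Lox. Ly6a was nearest to Rarres2 (mean r 0.41), which encodes chemerin, then to Apod (0.39) and Ly6c1 (0.38). Cd34 was nearest to Igfbp6 (0.34), Apod (0.30) and Nfib (0.30), and Ly6c1 to Ly6a, March7 (0.30) and Vegfd (0.30). Pdpn had the highest r of all members, with the small proteoglycan gene Aspn (0.50), the collagen cross-linking enzyme gene Lox (0.42) and Fstl1 (0.40). Its r with Aspn ran from 0.12 to 0.79. Thy1 was nearest to 9830132P13Rik (0.34), Mrpl27 and Ppih, Cd248 to Sgip1 (0.29), Rpl39 and Srsf11, Eng to Nkapd1 (0.38), Smg9 and Mpp7, Fap to Lrrn4cl (0.33), Frrs1 and Casp4, and Dpp4 to Bckdhb (0.46), Adamts17 and Itih5. For the sparse genes these lists rest on few cells: r of Dpp4 and Adamts17 ran from -0.15 to 1.00 between captures.

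Matrix cells of the 3 days were compared over the 7 captures. Dpp4 was nearly missing at day 12 and present later, and Ly6c1 was more frequent at day 21, but no member passed the test between any 2 days. Dpp4 reached 10 FPKM in 0 of 31, 0 of 26 and 1 of 17 matrix cells in the captures of day 12, in 10 of 50 and 6 of 22 at day 15, and in 2 of 18 and 6 of 34 at day 21. All 4 later captures lay above the 3 of day 12, and the 0 of 31 allows a share of up to 9.68% by the rule of 3 cells and of 11.2% by the exact interval. By day the shares were 1.35% (0.0342 to 7.30%), 22.2% (13.3 to 33.6%) and 15.4% (6.88 to 28.1%). The mean was 0, 0.222, 4.82, 34.1, 20.7, 8.29 and 11.6 FPKM in the 7 captures. The limma difference was 3.85 ± 0.95 from day 12 to 15 (adjusted p = 0.577), 2.49 ± 0.95 from day 12 to 21 (0.634) and -1.35 ± 1.04 from day 15 to 21 (0.906). Matrix cells of day 15 were the shallowest, with a median of 978218 fragments, against 1621075 at day 12 and 2265911 at day 21. The part of depth in the Dpp4 values was not tested. Mural cells had Dpp4 already at day 12, with 3 of 30 at 10 FPKM or more in its 3 captures.

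Ly6c1 reached 10 FPKM in 7 of 31, 7 of 26 and 3 of 17 matrix cells at day 12, in 15 of 50 and 6 of 22 at day 15, and in 8 of 18 and 24 of 34 at day 21. The shares by day were 23% (14 to 34.2%), 29.2% (19 to 41.1%) and 61.5% (47 to 74.7%). Both captures of day 21 lay above all others in share and in mean (206 and 431 FPKM, against 51.5 to 168 FPKM). The limma difference was -0.16 ± 0.57 from day 12 to 15 (adjusted p = 0.996), 1.42 ± 0.57 from day 12 to 21 (0.666) and 1.58 ± 0.62 from day 15 to 21 (0.840). The result turned on how cells were averaged. With the mean of log values in place of the log of the mean, the difference from day 12 to 21 was 3.02 and passed the test (limma adjusted p = 0.0138). Without capture 2 of day 21 it was 0.89. Day 21 was also the most deeply sequenced, and the part of depth was not tested.

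Cd34 and Ly6a were highest in capture 2 of day 21. Cd34 had a median of 114 FPKM there, against 1.42 to 7.13 FPKM in the other 6 captures, and 24 of 34 matrix cells reached 10 FPKM against 5 of 18 in capture 1 of the same day. The 2 captures of day 21 thus differed more than the days did. Ly6a had its highest mean there (1672 FPKM, against 467 to 1004 FPKM elsewhere), with a difference from day 12 to 21 of 0.92 ± 0.42 (limma adjusted p = 0.704). For Thy1 that difference was 1.00 ± 0.49 (adjusted p = 0.723), and both day 21 means, 170 and 169 FPKM, lay above the day 12 means of 72.2 to 109 FPKM. The highest sum of endothelial markers in a matrix cell was 5.49 FPKM in capture 2 of day 21. It ran from 0.87 to 158.86 FPKM over the other 6 captures. The part of endothelial RNA was not tested.

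The captures of Pdpn, Eng and Fap overlapped between all days. For Cd248 both day 21 means (54.7 and 67.8 FPKM) lay above the day 12 means of 24.7 to 47.6 FPKM, while the day 15 captures overlapped both. The difference of Cd248 from day 12 to 21 was 0.66 ± 0.53 (limma adjusted p = 0.823). Pdpn reached 10 FPKM in 83.3 to 100% of matrix cells in the captures and Cd248 in 50 to 72%. Eng did so in 0 to 20.6% and Fap in 0 to 29.4%.

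Across all 13552 genes tested, limma called 0% from day 12 to 15, 0.00738% (1 gene, Gm2564) from day 12 to 21 and 0% from day 15 to 21. At an unadjusted limma p under 0.05 there were 791, 968 and 745 of the 13552 genes. Chance alone would bring a share of about 0.05 of the genes under this limit. The median difference of the members was 0.07, 0.92 and 0.52 in the 3 comparisons, beside -0.10, -0.19 and -0.05 for all genes. Any 2 of the 3 comparisons share the captures of 1 day within 1 fit, so they are not separate evidence.

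**Figure D5:**
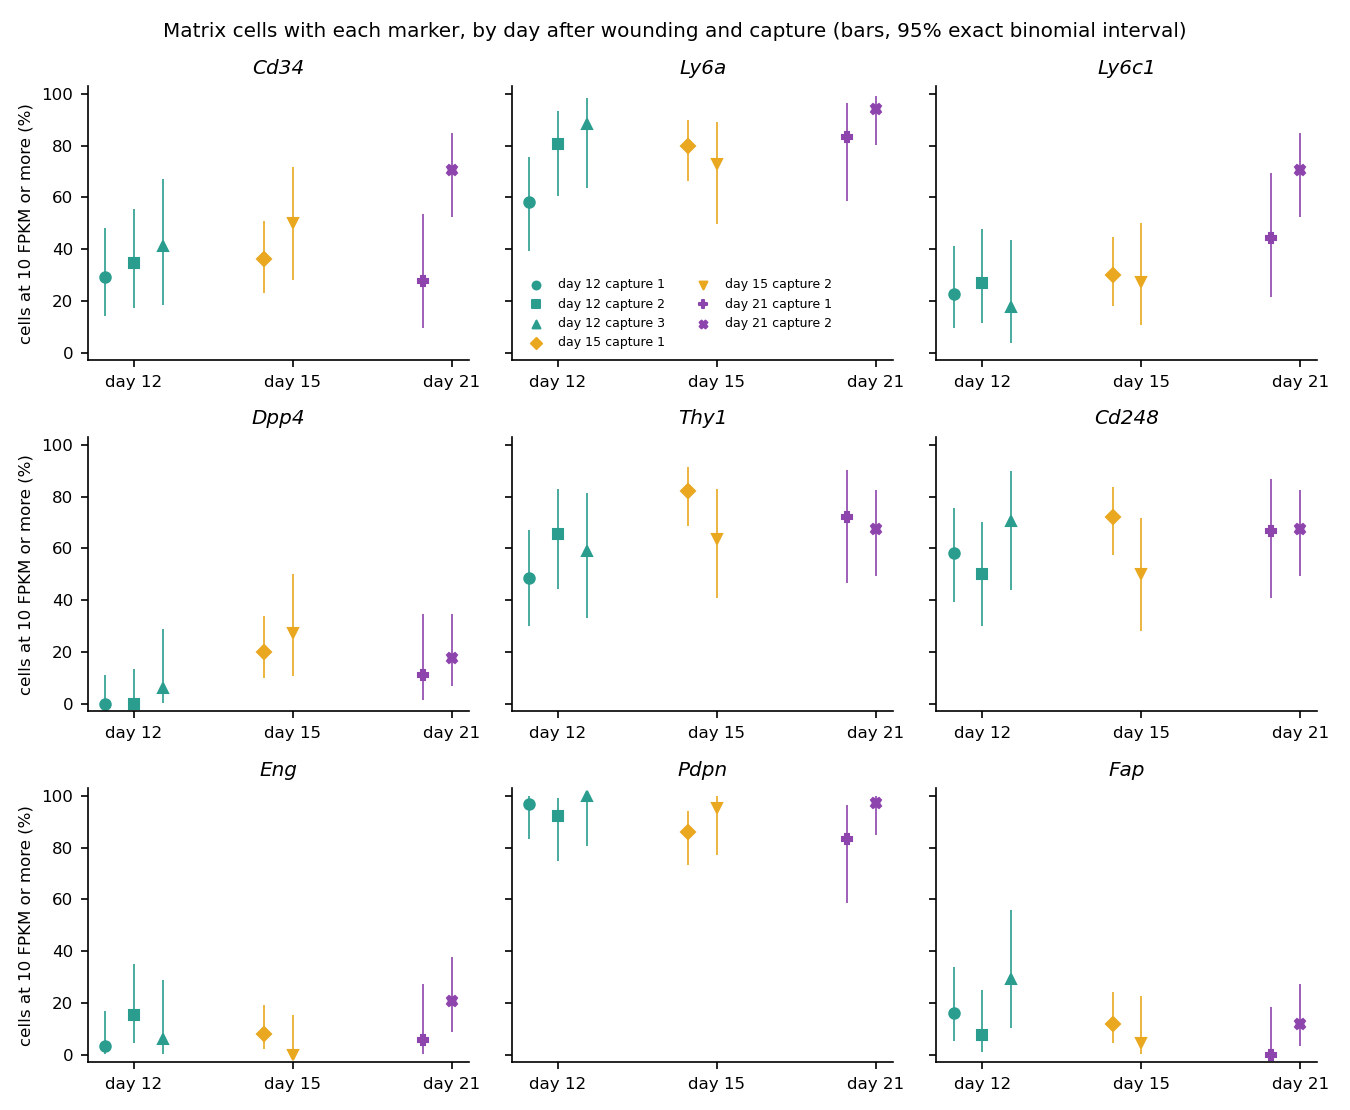
Points give the percent of matrix cells with 10 FPKM or more of each member in each capture, by day after wounding, with exact 95% binomial intervals as bars. Dpp4 is at 0, 0 and 5.88% at day 12 and between 11.1 and 27.3% later, and Ly6c1 is at 44.4 and 70.6% at day 21 against 17.6 to 30% before.

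Related gene lists set the members in context. Among 10 tested family relatives, such as the CD34 relatives, other Ly6 genes, peptidases and lectin-like receptors, 1 was higher in matrix than in mural cells (Ly6e) and 0 were lower, with a list median of 0.52. The CD34 relative Podxl was above 0 in 1 matrix cell. Of 15 tested partners, 1 was higher, the chemokine gene Cxcl12, a DPP4 substrate (3.82 ± 0.76, limma adjusted p = 0.0384). Of 21 other stromal surface antigens, 2 were higher in matrix cells, the PDGF receptor gene Pdgfra (3.69 ± 0.67, limma adjusted p = 0.0246) and Cd63 (0.85 ± 0.12, adjusted p = 0.0086), and 1 was higher in mural cells, Mcam (-5.27 ± 0.74, adjusted p = 0.0072), the CD146 antigen of pericytes.

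Genes known from papillary and universal fibroblasts included 1 called of 12, Sema3c (3.53 ± 0.72, limma adjusted p = 0.0426, higher in matrix cells). Genes known from reticular and hypodermal fibroblasts included 5 called of 11, 3 higher and 2 lower. The largest were Mfap5 (5.32 ± 1.06, limma adjusted p = 0.0384), Fabp4 (-4.23 ± 0.69, adjusted p = 0.0153), Plac8 (-4.15 ± 0.78, adjusted p = 0.0285) and Cxcl12. The list medians were 0.68 and 0.43, beside 0.22 for all genes. The list of reticular and hypodermal genes went both ways. Fabp4, a fatty acid carrier of adipocytes and capillary endothelium, was higher in mural cells, as was Plac8.

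Between myeloid and matrix cells, 1 of 8 tested family relatives was higher in myeloid cells, Cd93 (5.46 ± 1.31, limma adjusted p = 0.0365), a relative of Cd248, and 1 was lower, Tgfbr3 (-4.74 ± 1.06, adjusted p = 0.0310), the betaglycan relative of Eng. Of 14 partners, Fn1 was lower (-4.18 ± 0.96, limma adjusted p = 0.0326). Of 22 surface antigens, Cd36 was higher (4.68 ± 1.21, limma adjusted p = 0.0451), and Pdgfra (-4.14 ± 1.08), Cdh11 (-4.12 ± 1.06) and Cd63 (-0.85 ± 0.21) were lower. Sema3c was the 1 of 12 papillary and universal genes called (-4.53 ± 1.09), and 3 of 9 reticular and hypodermal genes were lower, Gpx3 (-6.21 ± 1.14), Mfap5 (-4.87 ± 1.30) and Plac8 (-4.15 ± 1.00). The list medians were -0.53, -1.17, -1.18, -2.09 and -3.46, in this order, beside -1.0 for all genes. Between days, limma called none of these genes.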

How the data were processed

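Full-length RNA of single cells was captured on C1 microfluidic chips. The authors aligned paired-end reads with Bowtie 1.0.0 and RSEM to mm10 (GENCODE release 13 for mouse). They deposited FPKM, 1 matrix per capture. Antisense partners cannot be told apart, since no stranded library kit is stated. Symbols and positions were taken from GENCODE mouse release 21.

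Fragments per cell were estimated from the steps between FPKM values of 9420 genes with 1 transcript no shorter than 1000 bp, taking fragments as 300 bp long. Cells were kept with at least 159000 fragments, at most 11000 genes and at most 15% mitochondrial FPKM. FPKM were averaged per cell kind and capture (at least 3 cells), log2-transformed with a pseudocount of 1, filtered at a mean of 1 FPKM, and tested with limma 3.58.1 (R 4.3.3) with a variance trend. Comparisons of kinds had the capture as a block, and days were fitted together over 7 captures. Tests are two-sided, and an adjusted p under 0.05 (Benjamini-Hochberg) is a call. The fits and the depth estimate were tested on simulated data. Python 3.11.15 with numpy 2.4.6, scipy 1.17.1 and pandas 2.3.3 was used.

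Members and lists were chosen with earlier results of these data known. Named are the members, at most 4 called genes per list and comparison, the relatives set beside a member, and the 3 genes most alike to each member. Gm2564 and the overlapping genes Gm16897, Gm13561 and Fpgs were named after their values were seen. Family relatives and other lists hold genes by textbook knowledge. Capture numbers were not used to pair days in the main fits, since they name no shared animal. Deviations of same-numbered captures had correlations between -0.01 and 0.03, which cannot show whether these captures shared animals. Alternatives were a pseudocount of 10, no filter on low values, the mean of logs, no cell filter, stricter gates (3000, 1500 and 1500 FPKM), the block, detection at 1 and 10 FPKM, each capture left out and, added after seeing the data, mural and myeloid cells with Col1a1 under 1000 FPKM. Droplet-based data of the study were not analysed here.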

Additional observations from a re-analysis of the deposited data

Results flagged for a closer look

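In 6 of 44 sets of captures, 1 capture stood apart from the rest by Dixon's test, which chance alone does in about 1 in 20 sets, and the sets are not independent. Values are log2(mean FPKM + 1), or their differences. Fap in matrix cells was lowest in capture 1 of day 21 (0.12, against a median of 3.59 over 7 captures). Eng in mural cells was highest in capture 3 of day 12 (4.66, median 2.40 of 5). Pdpn in myeloid cells was lowest in capture 2 of day 21 (0.48, median 8.05 of 4), a capture with 3 myeloid cells. The gap of Pdpn between myeloid and matrix cells was therefore widest there as well (-8.68, median -1.88). The gap of Cd34 between matrix and mural cells was smallest in capture 1 of day 21 (1.05, median 3.49 of 5). There 4 of the 8 mural cells had 1000 FPKM or more of Col1a1. Capture 1 of day 12 had 5 of 9 such mural cells and the widest gap of Cd34, 4.25. The part of these cells in the gaps was not tested. The gap of Ly6c1 was widest in capture 1 of day 12 (7.29, median 2.28 of 5), where all 9 mural cells were at 0.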

How the results depend on the processing

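Counts of genes called by limma moved most. Between matrix and mural cells, 236 became 19 with no filter on low values, 657 with the mean of logs and 596 with mural cells under 1000 FPKM of Col1a1 (chosen after seeing the data), and ran from 102 to 228 with 1 capture left out. Between myeloid and matrix cells, 861 became 183 with a pseudocount of 10, 31 with no filter, 485 with no cell filter and 1360 with myeloid cells under 1000 FPKM of Col1a1, and ran from 108 to 340. From day 12 to 15, 0 became 28 with the mean of logs. From day 12 to 21, 1 became 70 with the mean of logs, 2 with stricter gates, and 0 with no filter, with the capture number as a replicate block or without any 1 capture (0 to 0). From day 15 to 21, 0 became 1 with a pseudocount of 10. The replicate block changed no call of a member.

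Directions turned only for members that were not called. Dpp4 between matrix and mural cells became -0.00042 with the mean of logs, and -0.62 to 0.73 with 1 capture left out. Without capture 2 of day 21, Eng (-1.82 to 0.44 over the captures left out) and Fap (-1.30 to 0.15) turned between myeloid and matrix cells. Ly6c1 from day 12 to 15 became 0.29 with the mean of logs, 0.14 with the replicate block and -0.70 to 0.14 with 1 capture left out. The causes were not tested.

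Cd34 also lost its call between matrix and mural cells with a pseudocount of 10 (adjusted p = 0.0538) and the mean of logs (0.0627), Pdpn without the capture block (0.0666) and Ly6a with stricter gates (0.0521), while Fap gained one with the mean of logs (-1.67, 0.0260). Between myeloid and matrix cells Ly6c1 lost its call with no filter (0.0886), and Cd248 (stricter gates, no block, mean of logs), Pdpn and Thy1 (mean of logs) gained one. Without the cell filter, 36 of 36 correlations and 27 of 27 detection shares stayed within their error. With 10 FPKM in place of any value above 0 as detection, 14 of 27 shares left their interval. FPKM hold no counts, so shallow cells cannot be weighted.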

Other observations

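The 11 cells that met no rule all had 10 FPKM or more of Col1a1, with a median of 2914 FPKM. Rgs5 reached 10 FPKM in 5 of them and Tyrobp in 2. Pdpn reached 10 FPKM in 7 of them, Thy1 in 6, Cd34 and Ly6a in 4 each, Cd248 in 3, Ly6c1 and Eng in 2 each, and Dpp4 and Fap in 1 each. The single mural cell of capture 2 of day 15, which entered no comparison, had 4118 FPKM of Thy1 and 567 FPKM of Fap and was listed at 0 for Cd34, Ly6a, Ly6c1, Dpp4 and Cd248. Of the 3 myeloid cells of day 12 captures 1 and 3, which entered no comparison either, 1 had 963 FPKM of Ly6a with 0 for the other 8 members.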
